A study of Mus musculus with 6 samples.

Results

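The RNA of CD8+ T cells was examined for 10 genes that are known from regulatory and anergic T cells, namely *Ctla4*, *Izumo1r*, *Nt5e*, *Foxp3*, *Ikzf2*, *Nrp1*, *Tnfrsf4*, *Tnfrsf18*, *Nrn1* and *Icos*. They were taken by symbol from a table of 78275 genes, and all 10 were among the 16105 genes that held enough counts to be tested. The list was chosen by what was already seen in these same libraries, namely the lower values of *Ctla4* and *Izumo1r* in BIT mice, and the question was whether the other 8 genes shared them. The values of the 10 genes are therefore given as a description with standard errors, without a p-value for any of them, and the number that passed the threshold is given only beside that of all genes. The cells were TCRβhigh CD4-CD8+ T cells from 3 wildtype (WT) mice and 3 BIT mice, and each mouse gave 1 library after the sort. All mice had the C57BL/6 background, were 9 to 10 weeks old and were labelled as male. BIT mice are homozygous for an engineered allele in which the sequence for β5t (*Psmb11*), the catalytic subunit of the thymoproteasome, was put into the gene for β5i (*Psmb8*), its counterpart in the immunoproteasome. The allele is not limited to T cells, so it is also carried by the thymic and blood-derived cells that select and meet the T cells, and WT mice carry no engineered allele. The study engineered 6 BIT lines and documents 1 of them unless it says otherwise, and the labels do not say which line gave the RNA. The labels name lymph nodes as the source, while their protocol names lymph nodes and spleens.

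T cells that could attack the body are held in check by several routes. Regulatory T cells, most of which are CD4+ and depend on the transcription factor Foxp3, restrain other cells. Anergic T cells have met their antigen without sufficient costimulation and respond poorly when they meet it again. The receptor encoded by *Ctla4* takes the ligands CD80 and CD86 away from the costimulatory receptor CD28, and *Icos* encodes an inducible costimulatory receptor of the same family. *Izumo1r* encodes folate receptor 4, also called Juno, which serves as the sperm receptor on the egg, and *Nt5e* encodes CD73, an enzyme that makes adenosine from AMP outside the cell. High surface levels of both proteins together are used to recognise anergic CD4+ T cells. *Tnfrsf4* (OX40) and *Tnfrsf18* (GITR) encode costimulatory receptors of the TNF receptor family, *Nrp1* a co-receptor for semaphorins and VEGF, *Nrn1* the small surface protein neuritin, and *Ikzf2* the zinc finger protein Helios.

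The start regions of *Ctla4* and *Izumo1r*, which lay lower in BIT mice, and of *Nt5e*, which lay higher, are shown for reference. Each sequence is the 250 bases before the start of the canonical transcript in Gencode M39, read 5′ to 3′ on the strand of the gene from GRCm39, and none of these bases lies in an annotated exon. The windows are chr1:60947934-60948183 on the plus strand for *Ctla4*, chr9:14815246-14815495 on the minus strand for *Izumo1r* and chr9:88208839-88209088 on the plus strand for *Nt5e*. Capitals mark a match to the NFAT core (GGAAA, or TTTCC on the other strand) in *Ctla4* and *Izumo1r* and to the RUNX motif (TGTGGT, or ACCACA on the other strand) in *Nt5e*.
Ctla4: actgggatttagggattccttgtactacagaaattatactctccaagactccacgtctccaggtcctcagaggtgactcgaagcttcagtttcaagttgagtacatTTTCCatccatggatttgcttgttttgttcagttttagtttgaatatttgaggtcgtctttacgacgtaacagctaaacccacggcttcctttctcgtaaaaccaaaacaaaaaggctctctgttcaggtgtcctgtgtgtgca
Izumo1r: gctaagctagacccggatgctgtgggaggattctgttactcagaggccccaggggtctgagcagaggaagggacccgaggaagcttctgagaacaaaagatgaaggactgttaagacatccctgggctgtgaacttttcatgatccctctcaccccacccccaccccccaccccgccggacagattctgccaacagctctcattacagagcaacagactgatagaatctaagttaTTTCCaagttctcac
Nt5e: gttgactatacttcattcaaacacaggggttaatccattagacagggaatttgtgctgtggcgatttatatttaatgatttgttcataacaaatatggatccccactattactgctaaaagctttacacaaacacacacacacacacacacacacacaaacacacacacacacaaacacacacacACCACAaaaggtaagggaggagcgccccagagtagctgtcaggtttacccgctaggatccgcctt
The match began at base -144 in *Ctla4*, at -15 in *Izumo1r* and at -65 in *Nt5e*, counted from the start. The NFAT core was found in the windows of 5 of the 10 genes, the RUNX motif in 2 and the forkhead motif GTAAACA, searched on both strands as TGTTTAC too, in 0. Among the same windows of 21770 protein-coding genes, 58.0% held the NFAT core, 13.0% the RUNX motif and 2.72% the forkhead motif. A match of letters describes the sequence and does not show binding.

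Total estimated counts lay between 37467678 and 52922675 per library. Levels are given as CPM, the counts of a gene scaled to the total of its library, and a gene with 0 counts can have a level of up to 0.0567 to 0.0801 CPM, the worth of 3 counts, a limit that covers counting error only. The engineered locus matched the labels in every library, with 8024 to 10790 *Psmb8* counts in WT and 59 to 73 in BIT mice, and 0 *Psmb11* counts in WT and 1226 to 1926 in BIT mice. WT replicate 3 went against its label, since *Xist* reached 66626 counts there, compared with 2 to 125 in the other libraries, and 4 Y-linked genes were at 0. The replicate 3 libraries of both genotypes also stood apart from the others on the first principal component, which held 34.4% of the variance. They lay at 54.6 in WT and 28.6 in BIT mice. Replicates 1 and 2 lay at -7.04 and -3.31 in WT and at -36.5 and -36.3 in BIT mice, so the genotypes differed along it too. Values without WT replicate 3, or within replicates 1 and 2 alone, are therefore given beside the main results.

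The receptor gene *Ctla4* lay lower in BIT mice. In WT mice *Ctla4* had 115, 129 and 170 counts, or 2.17, 2.55 and 4.26 CPM in replicates 1, 2 and 3. In BIT mice it had 42, 23 and 49 counts, or 0.938, 0.547 and 1.31 CPM. All 3 BIT mice lay below all 3 WT mice, and the highest level was that of WT replicate 3. The mean level was 2.99 ± 1.11 CPM in WT and 0.931 ± 0.381 CPM in BIT mice (SD, n = 3 each), so that BIT mice had 31.1% of the WT level. In the fit to quantile-normalized values the difference was 2.96-fold, a log2 fold change of -1.56 (SE 0.30), and it was -1.45 without WT replicate 3 and -1.55 within replicates 1 and 2 alone. The gene lies on chromosome 1 (chr1:60926159-60954991, plus strand, GRCm39), its canonical transcript has 4 exons, and it shares no exon bases with another gene. The lowest count, 23, has an exact Poisson interval of 14.6 to 34.5 (95%), which covers counting error only.

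*Icos* and *Cd28*, which lie next to *Ctla4* on chromosome 1, overlapped between the groups. *Icos* (chr1:61017086-61039479) had 19.4, 15.4 and 21.1 CPM in WT and 17.6, 17.4 and 15.5 CPM in BIT mice. The log2 fold change of *Icos* was -0.13 (SE 0.13). *Cd28* (chr1:60755959-60812518), which encodes the costimulatory receptor with which CTLA-4 competes, had 129 to 155 CPM in WT and 126 to 171 CPM in BIT mice, with a log2 fold change of -0.03 (SE 0.11). Taken against its neighbour in the same library, which does not depend on the library total, *Ctla4* had 16.2, 19.8 and 27.4 counts per 1000 *Cd28* counts in WT and 7.46, 4.11 and 7.65 in BIT mice. The ratios of the groups did not overlap. The ratio of *Icos* to *Cd28* did overlap, with 119 to 145 *Icos* counts per 1000 *Cd28* counts in WT and 90.5 to 140 in BIT mice.

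**Figure D1:**
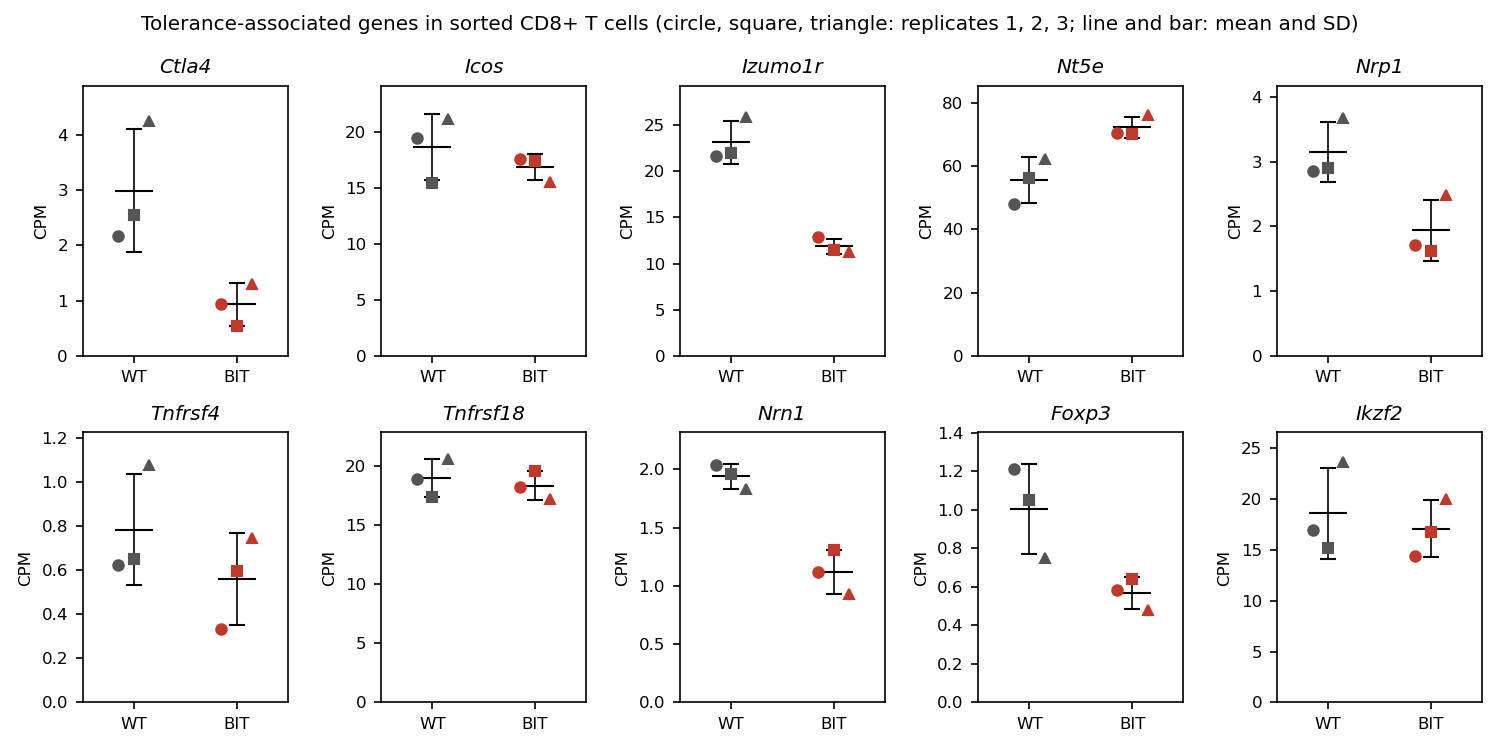
Level of each of the 10 genes in CPM (vertical axis, linear from 0) in the 3 WT (grey) and 3 BIT (red) mice, with circles, squares and triangles for replicates 1, 2 and 3 and a line and bar for the mean and SD. BIT mice lay below WT mice without overlap in *Ctla4*, *Izumo1r*, *Nrp1*, *Nrn1* and *Foxp3*, above them in *Nt5e*, and overlapped with them in the other 4 genes. Of all genes tested, 6.69% lay below and 6.09% above without overlap in CPM. After quantile normalization the groups overlapped in *Nrn1* and *Foxp3*.

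The genes of the marker pair for anergic cells, *Izumo1r* and *Nt5e*, differed in opposite directions. *Izumo1r* had 1144, 1111 and 1031 counts in WT and 574, 483 and 420 in BIT mice, or 21.6, 22.0 and 25.8 CPM against 12.8, 11.5 and 11.2 CPM. Every BIT mouse thus had a lower level than every WT mouse, and the range within each group was smaller than the gap between them. The mean level was 23.1 ± 2.33 CPM in WT and 11.8 ± 0.865 CPM in BIT mice (SD, n = 3 each), or 51.2% of the WT level. The fitted difference was 1.94-fold, a log2 fold change of -0.96 (SE 0.12), and it was -0.93 without WT replicate 3 and -0.85 within replicates 1 and 2 alone. The gene lies on chromosome 9 (chr9:14797110-14815245, minus strand), its canonical transcript has 5 exons, and it shares no exon bases with another gene.

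*Nt5e* was the 1 gene of the 10 that lay higher in BIT mice. It had 47.9, 56.2 and 62.3 CPM in WT and 70.4, 70.1 and 76.1 CPM in BIT mice. The groups did not overlap, although the gap between the highest WT and the lowest BIT mouse was smaller than the range within WT. The mean level was 55.5 ± 7.21 CPM in WT and 72.2 ± 3.39 CPM in BIT mice (SD, n = 3 each), and the fitted difference was 1.26-fold, a log2 fold change of 0.33 (SE 0.11). It was 0.39 without WT replicate 3 and 0.21 without WT replicate 1, the lowest value among the alternatives. *Nt5e* lies at chr9:88209089-88254146 on the plus strand, with 9 exons in the canonical transcript. Within each library, there were 451, 391 and 414 *Izumo1r* counts per 1000 *Nt5e* counts in WT and 182, 164 and 147 in BIT mice. The mean of this ratio was 419 ± 30.4 in WT and 164 ± 17.5 in BIT mice (SD, n = 3 each), and the groups lay far apart.

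Among the other surface molecules, *Nrp1* came closest to the pattern of *Izumo1r*. *Nrp1* (chr8:129085085-129231082, plus strand) had 151, 147 and 147 counts in WT and 77, 68 and 93 in BIT mice, or 2.85, 2.91 and 3.68 CPM against 1.72, 1.62 and 2.48 CPM. The groups did not overlap, and BIT replicate 3 lay nearest to WT. BIT mice had 61.6% of the WT level, and the log2 fold change was -0.62 (SE 0.20), and -0.70 within replicates 1 and 2 alone. Some of its exon bases are shared with short or non-coding genes, 80 with *Mir1903*, 39 with *Gm32643* and 294 with *Gm64234*.

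Whether the groups overlapped in *Nrn1* depended on the scale. *Nrn1* (chr13:36909335-36919156, minus strand) had 2.04, 1.96 and 1.83 CPM in WT and 1.12, 1.31 and 0.934 CPM in BIT mice, without overlap. After quantile normalization the log2 values were 1.21, 1.05 and 0.46 in WT and 0.48, 0.57 and -0.37 in BIT mice. On that scale WT replicate 3 lay below 2 of the BIT mice, and the log2 fold change of -0.69 had a standard error of 0.34. Without WT replicate 3 the log2 fold change was -0.90 and the groups did not overlap. On the opposite strand, *Fars2* shares 501 exon bases with *Nrn1*, *Gm30177* 372 and *Gm56572* 295, and the strand setting of the counting is not given in the sources used here.

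The TNF receptor genes *Tnfrsf4* and *Tnfrsf18*, which are neighbours on chromosome 4 (chr4:156098293-156101069 and chr4:156110621-156113352), overlapped between the groups. *Tnfrsf18* had 18.9, 17.3 and 20.6 CPM in WT and 18.2, 19.6 and 17.2 CPM in BIT mice, with a log2 fold change of -0.04 (SE 0.11). *Tnfrsf4* was near the lower end of what could be measured, with 33, 33 and 43 counts in WT and 15, 25 and 28 in BIT mice. The log2 fold change, -0.31, was smaller than its standard error of 0.33. The count of 15 has an exact Poisson interval of 8.4 to 24.7 (95%), which covers counting error only. In CPM, BIT replicate 3 at 0.747 lay above WT replicates 1 and 2 at 0.624 and 0.653. A difference of this size was not resolved among these mice.

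Of the transcription factor genes, *Foxp3* had few counts and *Ikzf2* overlapped between the groups. *Foxp3* (chrX:7439883-7461484, plus strand) had 64, 53 and 30 counts in WT and 26, 27 and 18 in BIT mice. In CPM these were 1.21, 1.05 and 0.751 against 0.581, 0.642 and 0.480, without overlap and with BIT mice at 56.6% of the WT level. After quantile normalization the groups overlapped, since WT replicate 3 lay at -0.89 on the log2 scale and the BIT mice at -0.41, -0.37 and -1.32. The log2 fold change was -0.62 with a standard error of 0.45, and it ranged from -0.98 without WT replicate 3 to -0.33 without WT replicate 1. *Foxp3* also shares exon bases with other genes, 853 with *Flicr* on the same strand and 590 with *Ccdc22*, 373 with *Gm36995* and 266 with *Ppp1r3f* on the opposite strand (the library kit keeps the strand, but the strand setting of the counting is not given in the sources used here). *Ikzf2* (chr1:69570373-69727004, minus strand) was expressed at a higher level, with 17.0, 15.2 and 23.7 CPM in WT and 14.4, 16.8 and 20.1 CPM in BIT mice. These groups overlapped, and the log2 fold change of -0.10 (SE 0.15) became 0.04 without WT replicate 3.

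Taken over the 10 genes, 9 log2 fold changes were below 0, and the median was -0.47, compared with 0.01 over all genes tested. Without *Ctla4* and *Izumo1r*, the genes that prompted the list, 7 of 8 were below 0 and the median was -0.22. At an adjusted p below 0.05 (limma-voom, Benjamini-Hochberg over all genes), 1 of the 10 genes, *Izumo1r*, was called, and it was lower, while 0.0559% of all genes tested were called lower and 0.0807% higher. The call of *Izumo1r* was lost when any mouse but WT replicate 3 was left out. In the quantile-normalized values, BIT mice lay below WT mice without overlap in 3 of the 10 genes and above in 1, compared with 5.96% and 7.38% of all genes tested. In CPM they lay below in 5 and above in 1, compared with 6.69% and 6.09%. Because the genes were chosen with these differences known, nothing is read from these counts.

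**Figure D2:**
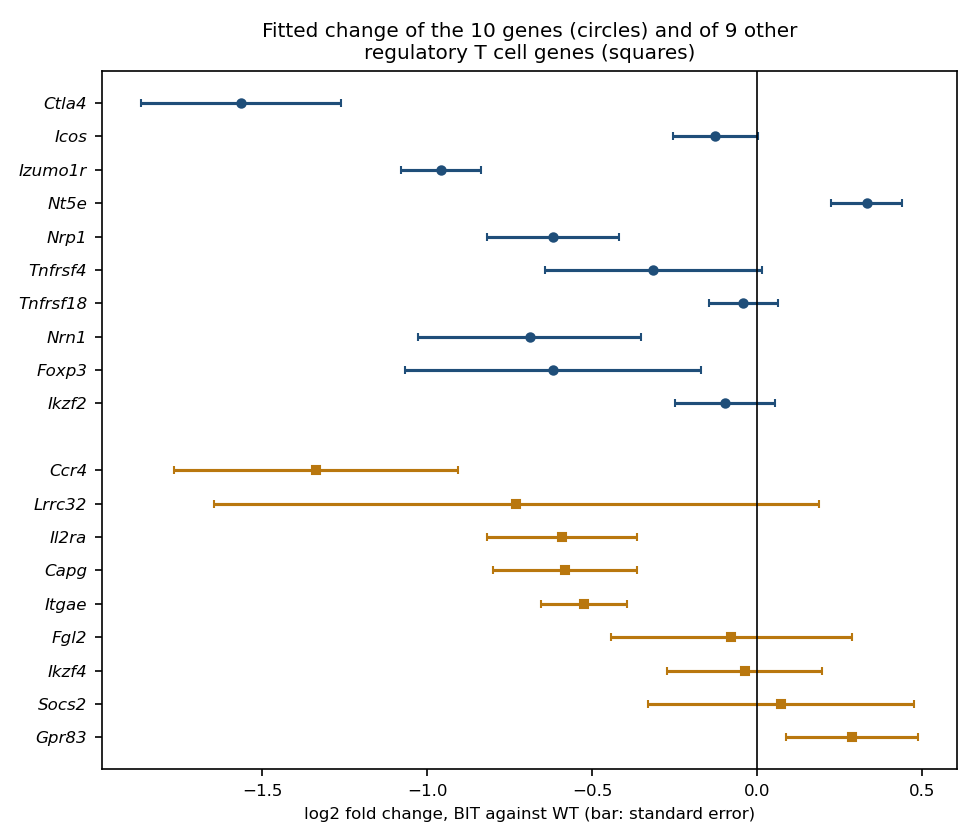
Log2 fold change of BIT against WT mice (horizontal axis) with its standard error, for the 10 genes (blue circles) and for the 9 other regulatory T cell genes that could be tested (brown squares). *Ctla4* at -1.56 and *Izumo1r* at -0.96 lay far from 0 compared with their bars, *Nt5e* lay to the right at 0.33, and the bars of *Icos*, *Tnfrsf4*, *Tnfrsf18* and *Ikzf2* crossed 0.

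To compare levels between genes, CPM was divided by the combined length, in kilobases, of all exons annotated for a gene in any transcript. This length can exceed that of the transcripts present, so the order between genes depends in part on the annotation. In WT mice the order of CPM per kilobase was *Tnfrsf18* (12.4), *Izumo1r* (8.32), *Nt5e* (6.33), *Icos* (5.43), *Ikzf2* (1.42), *Ctla4* (1.29), *Nrn1* (0.710), *Tnfrsf4* (0.572), *Foxp3* (0.219) and *Nrp1* (0.207). The neighbours *Nt5e* and *Icos*, *Ikzf2* and *Ctla4*, *Nrn1* and *Tnfrsf4*, and *Foxp3* and *Nrp1* overlapped between mice in this order. In BIT mice *Tnfrsf18* (12.01) was again at the top and was followed by *Nt5e* (8.24), *Icos* (4.90), *Izumo1r* (4.26) and *Ikzf2* (1.31), of which *Icos* and *Izumo1r* overlapped between mice. *Nrn1* (0.409), *Tnfrsf4* (0.407) and *Ctla4* (0.400) came next and overlapped from one neighbour to the next, as did *Nrp1* (0.127) and *Foxp3* (0.124) at the end. *Izumo1r* thus stood above *Nt5e* in WT and below it in BIT mice, and *Ctla4*, which overlapped with *Ikzf2* in WT mice, lay below it without overlap in BIT mice.

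**Figure D3:**
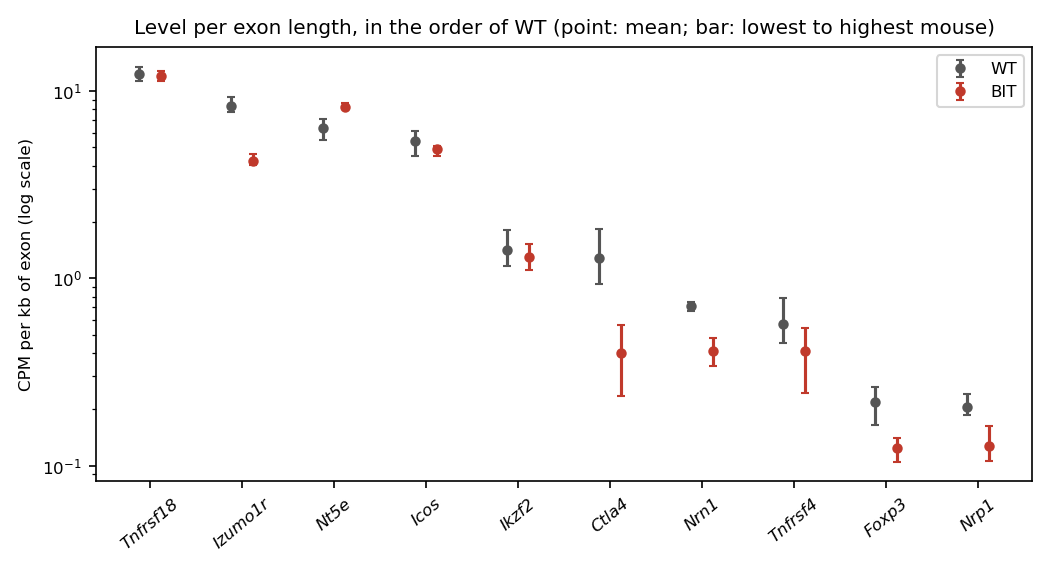
Level in CPM per kilobase of exon (vertical axis, log scale) of the 10 genes in the order of the WT means, for WT (grey) and BIT (red) mice, with the mean as a point and the lowest and highest mouse as a bar. *Tnfrsf18* was at the top in both groups, at 12.4 and 12.01, and *Foxp3* and *Nrp1* were at the bottom, between 0.124 and 0.219.

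Further genes of the same pathways were taken from 7 lists, which hold 54 genes with enough counts to be tested. None was called in limma-voom or in edgeR's quasi-likelihood test at an adjusted p below 0.05. DESeq2 called 1, *Cd5*, and gave no adjusted p for 7 of the 54, *Ccr4* among them. The list of 12 other regulatory T cell genes had the lowest median. Of its 9 genes tested, 7 had a log2 fold change below 0, the median was -0.53, and 4 were lower and 0 higher at an unadjusted p below 0.05, compared with 4.32% lower and 4.25% higher of all genes tested. *Itgae*, which encodes the integrin CD103 and is also expressed by many CD8+ T cells, had the highest level of this list, with 164, 145 and 124 CPM in WT and 116, 99.3 and 98.7 CPM in BIT mice. Its groups did not overlap, and its log2 fold change was -0.53 (SE 0.13, adjusted p = 0.372 by limma-voom). *Ccr4*, a chemokine receptor gene, had the largest difference of the list, with 41, 48 and 46 counts in WT and 20, 13 and 9 in BIT mice. The log2 fold change was -1.34 (SE 0.43, adjusted p = 0.511 by limma-voom), and it was -0.93 within replicates 1 and 2 alone. *Il2ra*, named here after its values were seen, encodes the α-chain of the IL-2 receptor and had 138, 115 and 141 counts in WT and 75, 69 and 67 in BIT mice. It did not overlap between the groups, with a log2 fold change of -0.59 (SE 0.23, adjusted p = 0.547 by limma-voom). The other genes tested, also named after their values were seen, lay on both sides of 0. The log2 fold change was 0.29 (SE 0.20) for *Gpr83*, 0.07 (SE 0.40) for *Socs2*, -0.04 (SE 0.23) for *Ikzf4* and -0.08 (SE 0.37) for *Fgl2*. It was -0.58 (SE 0.22) for *Capg* and -0.73 (SE 0.92) for *Lrrc32*. The median of the list depended on BIT replicate 3, since it was -0.10 without that mouse and -0.22 within replicates 1 and 2 alone.

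The lists around the other genes had medians nearer to 0. Of 8 CD28 family and ligand genes, all tested, 5 were below 0 and the median was -0.06, with 0 lower and 1 higher at an unadjusted p below 0.05. *Cd28* had the highest level of these, and *Pdcd1lg2*, a ligand gene of PD-1, the largest log2 fold change, 1.00 (SE 0.41, adjusted p = 0.559 by limma-voom), at a level of 0.463 CPM in WT and 0.830 CPM in BIT mice. *Pdcd1*, the gene of the inhibitory receptor PD-1, was chosen after its values were seen. It had 2.37 CPM in WT and 1.305 CPM in BIT mice and overlapped between the groups, with a log2 fold change of -0.64 (SE 0.38, adjusted p = 0.681 by limma-voom). *Btla*, of the same list and also named after its values were seen, overlapped too, with a log2 fold change of -0.09 (SE 0.09). Of 12 TNF receptor costimulation genes, 9 were tested, 4 were below 0 and the median was 0.17, with 0 lower and 1 higher at an unadjusted p below 0.05. *Cd27* was the highest, at 140.3 CPM in WT and 138.5 CPM in BIT mice, and *Tnfrsf25* had the largest log2 fold change, 0.43 (SE 0.21).

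In the list of extracellular adenosine around CD73, no gene was called. Of 6 genes, 5 were tested, 3 were below 0, the median was -0.11 and 0 passed an unadjusted p of 0.05. *Adora2a*, the gene of an adenosine receptor, had the largest log2 fold change, 0.34 (SE 0.15, unadjusted p = 0.0502 by limma-voom). *Dpp4*, whose product in humans binds adenosine deaminase, had the highest level, at 195.5 CPM in WT and 188.5 CPM in BIT mice. Of 16 genes of anergy and restraint of the T cell receptor signal, 15 were tested, 4 were below 0 and the median was 0.04, with 1 lower and 1 higher at an unadjusted p below 0.05. *Lag3*, an inhibitory receptor gene, had the largest log2 fold change, -0.74 (SE 0.36). *Tigit*, of the same list and named here after its values were seen, lay the other way, at 0.53 (SE 0.37), and its groups overlapped. *Dgka*, the gene of a kinase that removes diacylglycerol, had the highest level, at 550.3 CPM in WT and 503.1 CPM in BIT mice. The early response genes *Egr2*, *Egr3* and *Nr4a1*, named here after their values were seen, had log2 fold changes of 0.13 (SE 0.17), 0.01 (SE 0.19) and -0.22 (SE 0.12).

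*Cd5*, named here after its values were seen, is a restraint gene whose surface level is known to follow the strength of the signal from self-ligands. It had 162, 147 and 185 CPM in WT and 199, 222 and 223 CPM in BIT mice. The groups did not overlap, and the log2 fold change was 0.33 (SE 0.08), with an adjusted p of 0.349 by limma-voom and of 0.00675 by DESeq2. For the 3 relatives of Helios, *Ikzf1*, *Ikzf3* and *Ikzf5*, the median was 0.11 and 0 genes passed an unadjusted p of 0.05. *Ikzf3* had the largest value, 0.18 (SE 0.11), and *Ikzf1* the highest level, at 805.9 CPM in WT and 887.1 CPM in BIT mice. Of the 10 relatives and partners of neuropilin, the folate receptors and neuritin, 5 were tested, 2 were below 0 and the median was 0.18, with 0 lower and 2 higher at an unadjusted p below 0.05. *Vegfa* had the largest log2 fold change, -0.73 (SE 0.42), at 0.356 CPM in WT and 0.174 CPM in BIT mice, and *Sema4d* the highest level, at 273.9 CPM in WT and 331.1 CPM in BIT mice. *Izumo1*, which encodes the sperm ligand of Juno, and the folate receptor genes *Folr1* and *Folr2* had 0 counts in all 6 libraries, which allows up to 0.0801 CPM in the shallowest.

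The genes with the profile most like that of *Ctla4* and of *Izumo1r* were found by the root mean square difference between the centred log2 values over the 6 libraries. Nearest to *Ctla4* were *1700016L21Rik* (0.147), *Gm20712* (0.207), *Gm61820* (0.238), *Gm31513* (0.244) and *Gm70747* (0.265), all of them long non-coding RNA genes with a mean log2 CPM below 0. Nearest to *Izumo1r* were *Gm32633* (0.114), *Gm57104* (0.15), *Ckb* (0.157), *Gm3521* (0.162) and *H1f3* (0.172). *Ckb* encodes creatine kinase B and *H1f3* a linker histone, and the other genes are non-coding. Among the 10 genes, *Izumo1r* was nearest to *Ctla4*, at 0.412 and in place 65 of all genes tested, and *Nrp1* was nearest to *Izumo1r*, at 0.228 and in place 41. These profiles share their libraries and the difference between the groups, and the likeness is a description.

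In bulk RNA, fewer cells that express a gene and less RNA per cell cannot be told apart, so markers of other cell types that the sort could hold were summed in each library. CD8 T cell markers (6 of 6 detected) summed to 4136 to 4521 CPM in WT and 4252 to 4504 CPM in BIT mice. CD4 T cell markers (5 genes) summed to 2.61 to 4.93 CPM in WT and 2.68 to 4.00 CPM in BIT mice, and the groups overlapped. The largest part of the sum came from *Zbtb7b*, at 1.64 to 4.08 CPM in WT and 2.08 to 3.26 CPM in BIT mice. Whether this sum follows the number of regulatory T cells was not tested. *Cd4* itself had 38, 25 and 17 counts in WT and 8, 28 and 12 in BIT mice, while *Il4* was at 0 in all 6 libraries. There were 1680, 2120 and 1760 *Foxp3* counts per 1000 *Cd4* counts in WT and 3250, 964 and 1500 in BIT mice, so that *Foxp3* counts outnumbered *Cd4* counts in 5 of the 6 libraries. These ratios rest on 8 to 38 *Cd4* counts, and the *Foxp3* counts may hold reads of the genes that share its exon bases. Which cells held the *Foxp3* RNA was not tested.

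Markers of B cells (5 genes) summed to 28.5 to 37.3 CPM in WT and 22.9 to 30.1 CPM in BIT mice, and all 5 had log2 fold changes below 0, with a median of -0.37. Markers of myeloid and dendritic cells (8 genes) summed to 14.0, 21.0 and 39.6 CPM in WT and 14.95, 11.3 and 18.3 CPM in BIT mice, and *Siglech*, the marker gene of plasmacytoid dendritic cells, had 5, 8 and 5 counts in WT and 0 in each BIT mouse. The myeloid and dendritic markers had log2 fold changes below 0 in all 7 genes tested, with a median of -0.50. Their sum was highest in WT replicate 3, the library in which *Ctla4* was highest too, and *Itgax* alone gave 20.6 CPM of it. *Itgax*, *Itgam* and *Clec9a* were highest in that library. *Lyz2*, *Csf1r*, *Adgre1* and *Siglech* were highest in WT replicate 2, and *Flt3* in BIT replicate 3. The part of B cells, myeloid and dendritic cells in the levels of *Ctla4* and of the other genes was not tested. Markers of NK and NKT cells (3 genes) summed to 1.33 to 2.28 CPM in WT and 1.27 to 2.37 CPM in BIT mice, and markers of γδ T cells (5 genes) to 6.67 to 8.91 CPM in WT and 6.35 to 9.34 CPM in BIT mice.

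**Figure D4:**
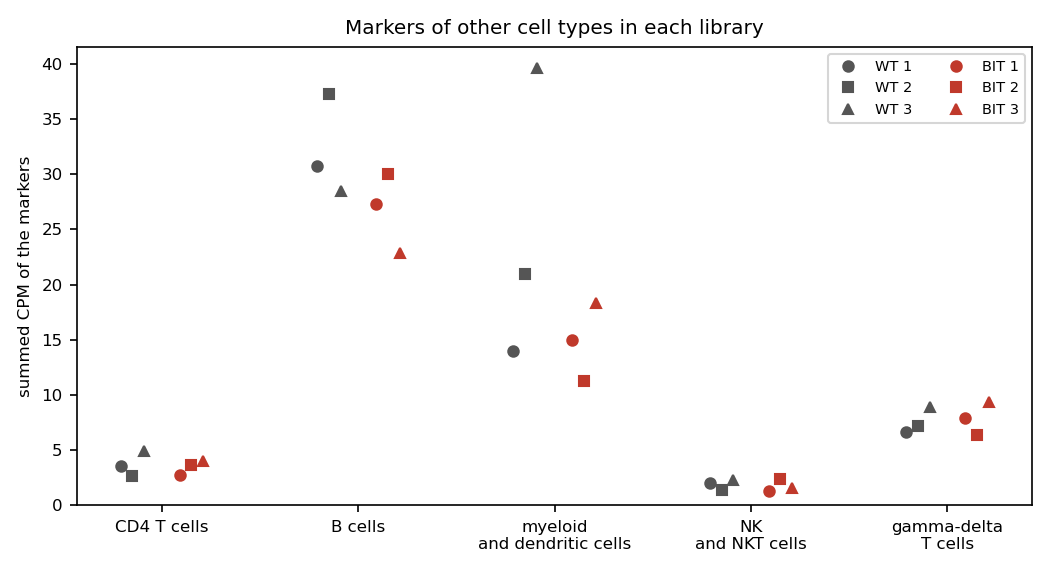
Summed level in CPM (vertical axis, from 0) of the markers of 5 other cell types in each library, with WT mice in grey, BIT mice in red and circles, squares and triangles for replicates 1, 2 and 3. The groups overlapped for every cell type, and WT replicate 3 had the highest sum of myeloid and dendritic markers, 39.6 CPM.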

How the data were processed

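RNA of sorted CD8+ T cells was measured in 6 libraries, grouped by the genotype in the sample labels. The values deposited by the authors are estimated counts per gene, not normalized. Per the submitters' processing notes and the methods, the authors trimmed reads with Cutadapt 1.18, aligned them with STAR 2.7.0f to GRCm39 and counted with RSEM 1.3.1, so near-identical genes share reads; the strand setting is not given in the sources used here. Ribosomal RNA was depleted, so unspliced RNA could be sequenced too, and its reads were counted only where they matched annotated transcripts. Of the values above 0, 84.8% were whole, and all were rounded. Gene positions are from Gencode M39. Genes were kept with filterByExpr (edgeR 4.0.16) and compared in R 4.3.3 with limma 3.58.1 (voom, quantile normalization, eBayes), with Benjamini-Hochberg adjustment over 16105 genes, the normalization and test that the methods name. p-values measure the spread between separate mice. CPM used the total estimated counts. Values are relative to the library total, so a shift of most genes in 1 direction would not be seen.

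The 10 genes and the lists were chosen with earlier results of these data known. The genes named are the 10, *Psmb8* and *Psmb11*, from each list those called, the largest change and the highest level, and the 5 genes nearest in profile to *Ctla4* and to *Izumo1r*; others are said to be named after their values were seen. The alternatives tried were DESeq2 1.42.0 and the quasi-likelihood test of edgeR, TMM normalization, all genes with any count, only genes whose mean reached 1 CPM, a block for the replicate number, a term for replicate 3, a stricter threshold and each mouse left out. The comparison of replicates 1 and 2 alone and the CPM scale for overlap were added after seeing the data.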

Additional observations from a re-analysis of the deposited data

How the results depend on the processing

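*Ctla4* and *Izumo1r* were lower in BIT mice in all 14 alternatives, with log2 fold changes from -1.71 to -1.29 and from -1.05 to -0.85, and *Nt5e* was higher in all 14, from 0.21 to 0.40. *Izumo1r* was called in 7 of the 14. It was not called without a filter, with the replicate block or when any mouse but WT replicate 3 was left out. *Ctla4* was called in 1, by DESeq2, which called 125 of all genes tested, compared with 22 in the main comparison. Both genes were chosen because they were lower in these same libraries, so nothing is read from how often they were called. *Ikzf2* (-0.20 to 0.04), *Tnfrsf18* (-0.09 to 0.05) and *Icos* (-0.23 to 0.01) changed sign in 1 or 2 of them. The median of the 10 genes was -0.47, and it was -0.61 with TMM normalization, -0.60 with edgeR and with DESeq2, -0.37 for the 8 genes with a mean of at least 1 CPM, and -0.51 to -0.33 with each mouse left out. The genes in which BIT mice lay below WT mice without overlap, 3 in the main comparison, were 5 with TMM normalization, on the CPM scale and within replicates 1 and 2 alone, and 3 to 5 with each mouse left out (5 without WT replicate 3, with *Foxp3* and *Nrn1* added). The genes called among all tested numbered 22, compared with 14 by edgeR, 125 by DESeq2, 42 with a term for replicate 3, 71 within replicates 1 and 2 alone, 4 where an adjusted p of 0.01 and a 2-fold difference were required, and 1 (without WT replicate 1) to 37 (without WT replicate 3) with each mouse left out. The causes were not tested. Of 748 alternative values of the 54 list genes, 10 moved by more than the spread between replicates. The replicate numbers in the labels do not say what same-numbered mice share, so these mice were not taken as pairs. Deviations of same-numbered mice correlated at 0.139, 0.0255 and 0.332, compared with -0.299 to 0.244 for mice with different numbers. The value of replicate 3 was thus the highest. With the replicate number as a block, 21 genes were called and the median of the 10 genes was -0.46. The low counts of *Tnfrsf4*, *Foxp3*, *Nrn1* and, in BIT mice, *Ctla4* limit what could be resolved.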
